A study of Mus musculus with 10 samples.

Results

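The interferon-stimulated genes described here were Isg15, Irf7, Ifit1, Ifit3, Oasl2, Mx1, Usp18, Bst2 and Ifi27l2a. These 9 symbols were listed by name and matched to the Ensembl identifiers of the count files with the version dropped, and all 9 were found among the 47937 genes counted in each library. All 9 passed the filter on low counts in every comparison. Their expression was followed by mRNA-seq of visceral white adipose tissue (WAT) in 10 libraries from 4 groups of mice, to ask how the genes vary with Mof genotype and with diet.

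The mice were of the C57BL/6 strain and differed by genotype and diet. The standard diet (SD) groups held 3 Mof+/+ (wild-type control) and 3 Mof+/- (heterozygous) libraries from animals 8 weeks old. The high-fat diet (HFD) groups held 2 Mof+/+ and 2 Mof+/- libraries from animals 27 weeks old, after 20 weeks of HFD. These ages and that duration are those of the series' design text, and the paper differs from it in both. The Mof+/- mice keep only a single working copy of Mof in every tissue, so that a difference in WAT need not start in WAT cells. Diet and age went together and cannot be told apart. The labels call the SD libraries biological replicates and the HFD libraries duplicates. In every comparison that uses HFD libraries, p-values therefore measure in part the spread between duplicates, which may be technical.

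Several facts about the libraries touch every result below. Kat8, the gene that encodes MOF, was at 21.5, 21.4 and 20.4 CPM (counts scaled to a common library total) in the SD Mof+/+ libraries and at 12.2, 18.8 and 11.5 CPM in the SD Mof+/- libraries, which did not overlap. It was at 18.1 and 19.2 CPM in the HFD Mof+/+ libraries and at 20.1 and 10.5 CPM in the HFD Mof+/- libraries, which did. The column headings inside the files of replicate 3 of both SD groups name the opposite genotype, and groups here follow the sample labels. All 3 SD Mof+/- libraries had counts of Xist, the RNA of the inactive X chromosome of females, and 0 counts of the Y-linked genes Ddx3y, Eif2s3y, Kdm5d and Uty, whereas the study's methods describe male mice. The other 7 libraries had 0 counts of Xist and counts of Y-linked genes. On SD, sex and genotype therefore cannot be told apart, nor can sex and diet within Mof+/- WAT. The interaction of genotype and diet holds the same difference in sex. Total counts on genes ran from 1044355 to 17171947. The shallowest library, HFD Mof+/- replicate 1, had 26.9% of its counts on mitochondrial genes and 52279 CPM summed over 8 skeletal muscle markers. That sum was 1331 CPM in HFD Mof+/- replicate 2 and at most 89.0 CPM in the other 8 libraries. The 7 adipocyte markers, such as Adipoq and Plin1, were detected in every library, with sums from 14172 to 48695 CPM.

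Interferons are cytokines that cells release after sensing viral or other nucleic acids. Type I interferons bind the receptor made of IFNAR1 and IFNAR2, whose kinases JAK1 and TYK2 activate transcription factors that include STAT2. With IRF9, STAT2 takes part in a complex that binds the interferon-stimulated response element of its target genes. Interferon gamma acts through IFNGR1, IFNGR2, JAK1 and JAK2 on a partly different set of genes. In fat, macrophages, dendritic cells, stromal cells and adipocytes can all respond.

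The members have distinct roles in that program. Irf7 encodes the transcription factor that amplifies type I interferon production. Ifit1 and Ifit3 encode proteins that bind foreign RNA or assist such binding, Oasl2 belongs to the oligoadenylate synthetase family, and Mx1 encodes a GTPase known for restricting influenza viruses in the nucleus, although the allele of C57BL/6 and most laboratory strains makes no working protein. Bst2 encodes tetherin, which holds budding virus particles at the cell surface. Isg15 encodes a ubiquitin-like protein that is attached to other proteins, and Usp18 encodes the protease that removes it and also dampens type I receptor signaling. Ifi27l2a belongs to the family of small hydrophobic proteins around Ifi27.

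Because the response element is the sequence these genes are known to share, promoters were searched for its core, which reads GAAA, any 2 bases and GAAA again, on either strand. The window ran from 250 bases before to 50 bases after the start site of each gene in the RefSeq table (GRCm38.p6). Overlapping matches were counted, and no other motif was searched. The table held 6 of the 9 genes, and 4 of these 6 had a match, against 3.44% of all 32851 promoters in the table. Mx1, Usp18 and Ifi27l2a were not in the table. The 200 bases before the start of the 4 genes with a match are shown 5′ to 3′ on the strand of the gene, with the matched bases in capitals.
Isg15, chr4:156200819-156201018, minus strand: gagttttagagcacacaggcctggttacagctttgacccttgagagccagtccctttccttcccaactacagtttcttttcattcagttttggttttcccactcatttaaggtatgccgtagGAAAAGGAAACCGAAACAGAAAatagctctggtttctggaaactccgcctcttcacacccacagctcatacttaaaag
Bst2, chr8:71537473-71537672, minus strand: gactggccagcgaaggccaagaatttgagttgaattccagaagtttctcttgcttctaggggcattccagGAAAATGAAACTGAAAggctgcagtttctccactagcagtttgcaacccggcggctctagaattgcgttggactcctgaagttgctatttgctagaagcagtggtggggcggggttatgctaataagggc
Ifit3, chr19:34583329-34583528, plus strand: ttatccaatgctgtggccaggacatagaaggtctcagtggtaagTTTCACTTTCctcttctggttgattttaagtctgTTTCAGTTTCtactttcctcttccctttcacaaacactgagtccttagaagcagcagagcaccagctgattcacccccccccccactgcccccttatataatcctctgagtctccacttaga
Ifit1, chr19:34640689-34640888, plus strand: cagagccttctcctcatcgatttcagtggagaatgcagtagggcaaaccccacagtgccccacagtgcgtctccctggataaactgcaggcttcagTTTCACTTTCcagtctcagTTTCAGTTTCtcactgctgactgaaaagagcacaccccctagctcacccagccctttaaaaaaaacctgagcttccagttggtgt

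Isg15 held 3 overlapping matches that begin 78, 72 and 66 bases before the start. Bst2 held 2 overlapping matches at 130 and 124 bases. Ifit3 and Ifit1, in the Ifit gene cluster on chromosome 19, held 2 separate matches each, at 156 and 122 bases in Ifit3 and at 104 and 85 bases in Ifit1. No match was found in the windows of Irf7 and Oasl2. Of the other interferon-stimulated genes listed below, 16 of the 36 in the table had a match, and of the interferon gamma response genes 10 of 15. In the other lists below, 11 of 20 interferon ligands, 3 of 12 sensing genes and 1 of 7 negative regulators had a match. So did 1 of 6 regulatory factors, 1 of 10 receptor and JAK-STAT genes and 0 of 4 ISG15 conjugation genes. These lists count genes, some with several promoters, whereas the share over the whole table counts promoters. A match is only a description of these letters, and binding was not measured.

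**Figure D1:**
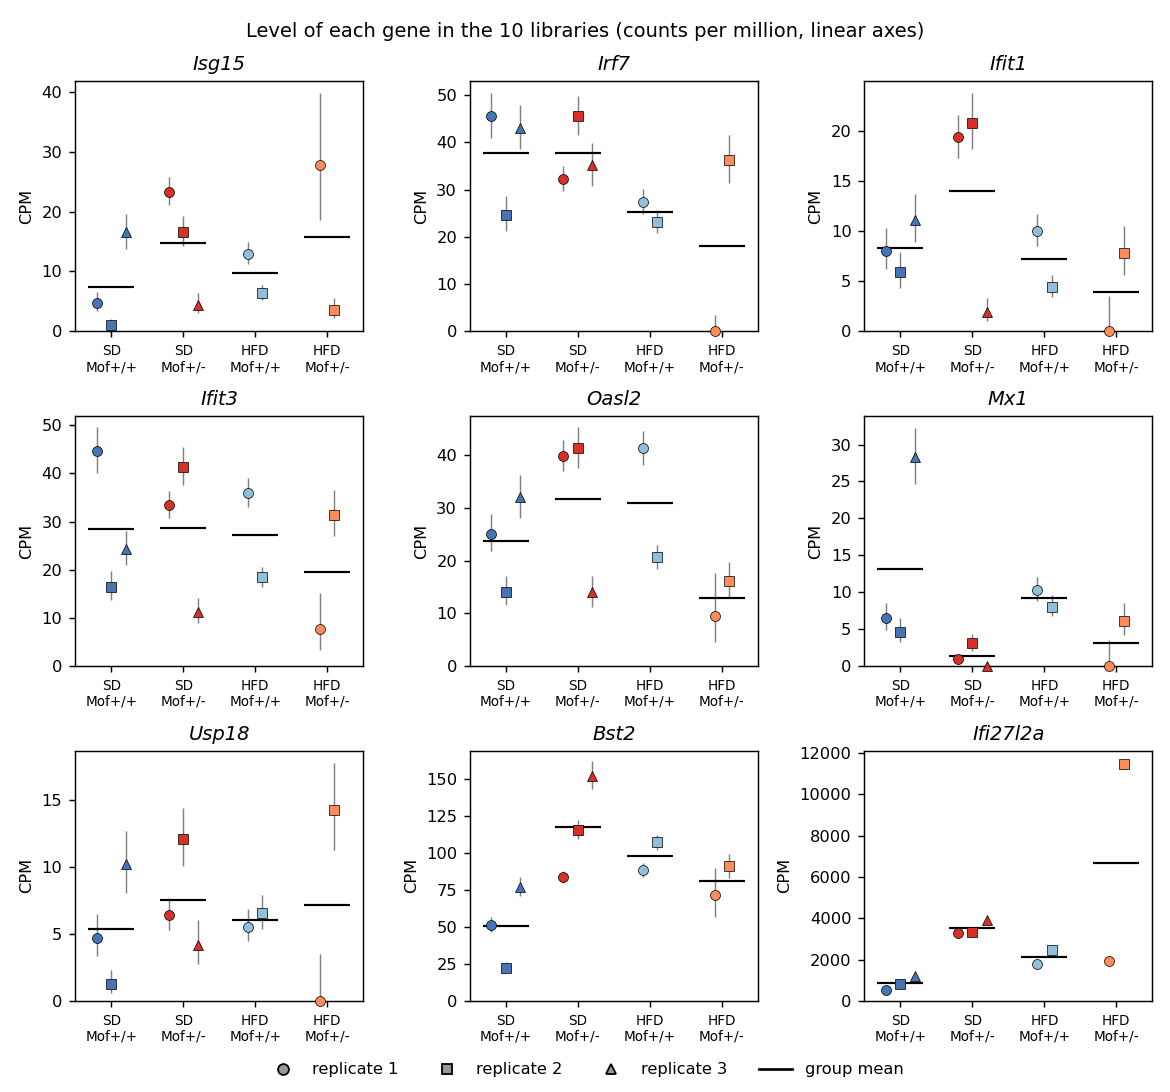
CPM of each of the 9 genes (vertical axes, linear, from 0) in the 10 libraries, by group; circles, squares and triangles are replicates 1, 2 and 3, gray lines the 95% exact intervals for counting error, and black bars the group means. Ifi27l2a and Bst2 separate the SD genotypes upward and Mx1 downward, while the other 6 genes overlap, and Irf7, Ifit1, Mx1 and Usp18 are at 0 in HFD Mof+/- replicate 1.

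Per kilobase of exon, Ifi27l2a stood far above the rest, with a median over the libraries of 4745 CPM per kilobase. Bst2 followed at 95.3, Ifit3 at 16.0, Isg15 at 12.8 and Irf7 at 8.92 CPM per kilobase. Oasl2, Ifit1, Usp18 and Mx1 were lowest, at 3.60, 2.98, 2.14 and 1.43 CPM per kilobase. The order was not the same in each group. By group means Mx1 was above Ifit1 and Usp18 in SD Mof+/+ (3.47 against 3.14 and 1.93 CPM per kilobase), and Isg15 above Ifit3 in SD Mof+/- (19.6 against 16.5 CPM per kilobase). When the 4 groups were ordered by mean CPM for each gene, 23 of the 27 neighboring pairs of groups overlapped between libraries and 4 did not, where 24.4% of such pairs over all genes did not. The exceptions were Irf7 between SD Mof+/- and HFD Mof+/+, Mx1 between HFD Mof+/+ and HFD Mof+/-, and Ifi27l2a between SD Mof+/-, HFD Mof+/+ and SD Mof+/+. HFD Mof+/- replicate 1 was lowest of the 10 libraries, ties at 0 included, for 6 of the 9 genes, whereas SD Mof+/- replicate 2 was highest for 3.

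The first comparison asked whether the genes differed between the genotypes on SD, before nutrient stress. Ifi27l2a rose in Mof+/- WAT. It is on chromosome 12 at 103442167 to 103443680 (GRCm38, minus strand) and has 463 bases of exon. It was at 513, 829 and 1233 CPM in the Mof+/+ libraries and at 3279, 3363 and 3918 CPM in the Mof+/- libraries. Every Mof+/- library was above every Mof+/+ library, and the group means were 858 ± 361 and 3520 ± 347 CPM (SD, n = 3 each). The log2 fold change was 2.41 with a standard error (SE) of 0.35 (adjusted p = 0.0227, edgeR). It was the only one of the 9 genes called, where 5.24% of the 13864 genes tested were.

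Bst2 was at 51.6, 22.6 and 77.3 CPM in Mof+/+ and at 83.7, 116 and 152 CPM in Mof+/- WAT. The groups did not overlap, with the highest Mof+/+ library close to the lowest Mof+/- library, and the log2 fold change of 1.60 ± 0.44 (SE) missed the threshold (adjusted p = 0.0666, edgeR). DESeq2 called it (1.61, adjusted p = 0.0073, among 2198 genes in all), as did edgeR with no filter, while grouping by the column headings left 0.19. Mx1 went the other way, at 6.51, 4.66 and 28.3 CPM in Mof+/+ and at 0.932, 3.07 and 0 CPM in Mof+/- WAT. In Mof+/- replicate 3 the floor of 3 counts is 0.446 CPM, and the exact 95% interval of the 0 reaches 0.549 CPM. These groups did not overlap either, with a log2 fold change of −2.93 ± 1.23 that missed the threshold (adjusted p = 0.177, edgeR). Leaving out each library in turn gave −4.28 (without Mof+/- replicate 2) to −1.73 (without Mof+/+ replicate 3, the highest library). With replicate 3 of both groups left out it was −1.18, and grouping by the column headings turned it to 1.51. In all, 3 of the 9 genes did not overlap between the genotypes, where 40.3% of all genes tested did not.

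The other 6 genes overlapped between the genotypes on SD. Isg15 was at 4.73, 0.959 and 16.5 CPM in Mof+/+ and at 23.4, 16.6 and 4.46 CPM in Mof+/- WAT. Ifit1 was at 8.05, 5.89 and 11.1 CPM in Mof+/+ and at 19.3, 20.8 and 1.93 CPM in Mof+/- WAT. Ifit3 was at 44.7, 16.4 and 24.3 CPM in Mof+/+ and at 33.5, 41.4 and 11.3 CPM in Mof+/- WAT. For all 3 genes Mof+/- replicate 3 was the lowest of its group and Mof+/+ replicate 2 the lowest of the controls. Oasl2 behaved alike, at 25.2, 14.1 and 32.0 CPM in Mof+/+ and at 39.9, 41.3 and 14.0 CPM in Mof+/- WAT. Usp18 was at 4.73, 1.23 and 10.2 CPM in Mof+/+ and at 6.41, 12.1 and 4.16 CPM in Mof+/- WAT. The same 2 libraries were lowest in their groups for these genes. Irf7 was at 45.5, 24.7 and 43.1 CPM in Mof+/+ and at 32.3, 45.6 and 35.1 CPM in Mof+/- WAT. Their log2 fold changes ran from 0.35 for Ifit3 to 1.35 for Isg15, with adjusted p from 0.325 to 0.707 (edgeR), and with an offset for exon length Ifit3 stood at −0.14. Leaving out each library in turn gave 0.84 to 2.69 for Isg15, 0.37 to 1.67 for Usp18, 0.026 to 0.85 for Ifit3, 0.70 to 1.59 for Ifit1, 0.51 to 1.10 for Oasl2 and 0.14 to 0.52 for Irf7. On library totals in place of TMM scaling the 9 log2 fold changes were lower by a median of 0.35, and Irf7 then stood at −0.01.

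**Figure D2:**
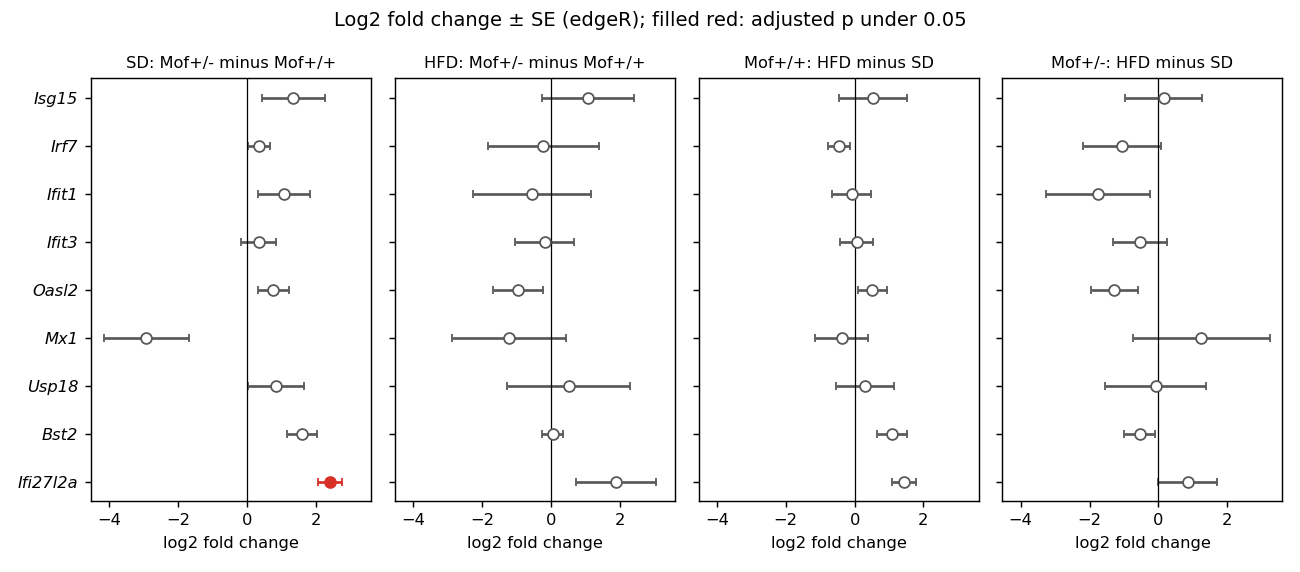
Log2 fold change ± SE (horizontal axes) of the 9 genes in the 4 pairwise comparisons, from edgeR's fit; a filled red point passed an adjusted p of 0.05. Ifi27l2a on SD is the only filled point, at 2.41, and the widest bars are those of comparisons with the HFD Mof+/- libraries.

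The call of Ifi27l2a held in 9 of 15 alternatives. It was lost with an offset for exon length (log2 fold change 1.15, adjusted p = 0.102, edgeR), with all 10 libraries in a single fit (2.42, adjusted p = 0.0591), and without SD Mof+/+ replicate 1 (2.15, adjusted p = 0.122), SD Mof+/+ replicate 2 (2.40, adjusted p = 0.0861) or SD Mof+/- replicate 2 (2.48, adjusted p = 0.101), and grouping by the column headings left 0.49 (adjusted p = 0.9998). With replicate 3 of both SD groups left out it was 2.61 (adjusted p = 0.0190, edgeR).

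The rest of the pathway was read from 8 lists of 136 other genes. Of the 112 tested on SD, 39 had log2 fold changes above 0 and 73 below, with a median of −0.26 beside −0.07 over all genes tested. Of them 1 rose and 3 fell, where 5.24% of all genes were called. For the 9 genes the median was 0.84, with 8 above 0. On library totals it was 0.48, with 7 above 0. It was 0.51 without SD Mof+/+ replicate 2, 0.56 without SD Mof+/- replicate 2, 1.32 without SD Mof+/+ replicate 3 and 1.73 with replicate 3 of both SD groups left out. No ligand could be tested. Of 21 interferon genes, 20 had 0 counts in every library, Ifnb1 and all the Ifna genes among them. Ifng, the gene of interferon gamma, had 26 counts in SD Mof+/+ replicate 1, 26 in HFD Mof+/+ replicate 2, 10 in HFD Mof+/- replicate 2 and 3 in SD Mof+/- replicate 1, and 0 in the others.

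Among the 12 receptor and JAK-STAT genes on SD, Jak2, the kinase of the interferon gamma receptor, fell in Mof+/- WAT (67.7, 49.9 and 61.9 CPM in Mof+/+ against 24.6, 15.1 and 9.52 CPM, log2 fold change −1.52 ± 0.35, adjusted p = 0.0471, edgeR). Stat2, which carries the type I signal, was at 77.9, 35.6 and 60.0 CPM in Mof+/+ and at 19.5, 19.4 and 5.06 CPM in Mof+/- WAT, without overlap (log2 fold change −1.64 ± 0.49, adjusted p = 0.0829, edgeR). Irf9, which binds DNA with it, had a log2 fold change of −0.23, with overlapping groups. The receptor genes Ifnar1, Ifnar2, Ifngr1 and Ifngr2 had log2 fold changes of −0.56, 0.19, −0.75 and 0.73, with adjusted p from 0.119 to 0.667 (edgeR). None of the 7 interferon regulatory factors other than Irf7 passed the threshold. All 7 were below 0 and Irf7 was at 0.36, where 46.8% of all genes tested were above 0. Irf5, a factor of inflammatory macrophages, was at −0.80. None of the 17 sensing genes passed it. The RNA sensors Ddx58, Ifih1 and Dhx58 had log2 fold changes of −0.51, −0.34 and 0.15.

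Among 44 further interferon-stimulated genes tested on SD, Helz2, a helicase coactivator, was the only gene called and fell (80.3, 36.3 and 85.2 CPM in Mof+/+ against 12.8, 16.1 and 4.16 CPM, log2 fold change −2.26 ± 0.50, adjusted p = 0.0433, edgeR). The relatives of the members did not pass the threshold. Ifit3b had a log2 fold change of 0.18, Ifit1bl1 of −2.10, Oasl1 of 0.36 and Mx2 of −0.97. None of the 4 genes of ISG15 conjugation was called, and Trim25 and Ube2l6, a ligase and the conjugating enzyme, were at −0.50 and 0.34. Of 22 interferon gamma response genes, Gbp4, a guanylate-binding GTPase, fell (114, 21.2 and 65.3 CPM in Mof+/+ against 13.0, 6.81 and 8.48 CPM, log2 fold change −2.47 ± 0.57, adjusted p = 0.0464, edgeR). Of 7 negative regulators, Socs3, a feedback inhibitor of cytokine receptors, rose (15.8, 14.7 and 23.5 CPM in Mof+/+ against 222, 50.8 and 60.8 CPM, log2 fold change 2.97 ± 0.56, adjusted p = 0.0325, edgeR). Each of these 4 calls was lost without SD Mof+/+ replicates 1, 2 or 3, or SD Mof+/- replicate 2, and that of Jak2 also without SD Mof+/- replicate 3, that of Helz2 also without SD Mof+/- replicate 1, and that of Gbp4 also without either. Grouping by the column headings ended all 4 calls, with −0.27 for Jak2, −0.054 for Helz2, −0.75 for Gbp4 and 1.66 for Socs3. All 10 libraries in a single fit also ended all 4, and the length offset those of Jak2, Helz2 and Gbp4, as did leaving out replicate 3 of both SD groups. Without SD Mof+/- replicate 1, the highest library for Socs3, its log2 fold change was 2.04.

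**Figure D3:**
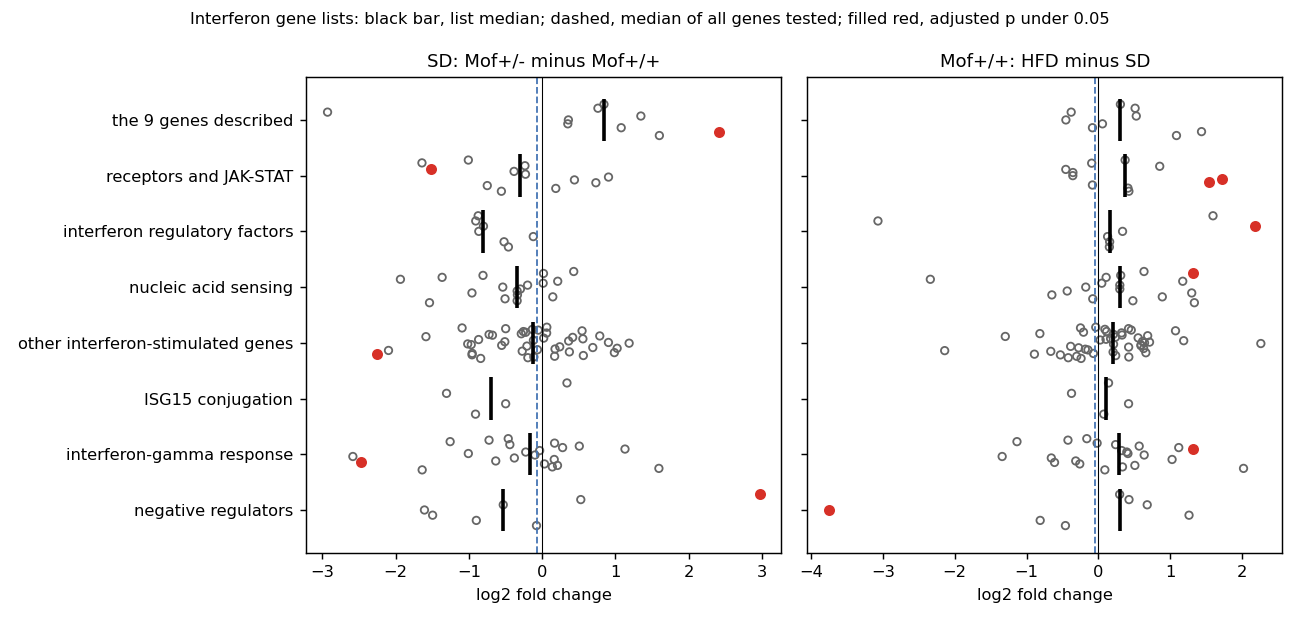
Log2 fold changes (horizontal axes) of the genes in each interferon list, for the genotypes on SD and the diets in Mof+/+; open points are genes tested, filled red points passed an adjusted p of 0.05, black bars are list medians and the dashed line is the median of all genes tested. On SD the 9 genes have a median of 0.84 and the 7 other lists medians below 0, while between the diets in Mof+/+ the median of each list shown is above 0, from 0.11 to 0.37.

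Markers of cell types moved with genotype on SD. The 7 adipocyte markers summed to 16100 to 20916 CPM in Mof+/+ and to 29828 to 48695 CPM in Mof+/- libraries, and 3 of the 7 rose. The 5 mesothelial markers summed to 21.8 to 39.5 CPM in Mof+/+ and to 141 to 312 CPM in Mof+/- libraries, and 4 of the 5 rose. The 5 markers of fibroblasts and progenitors summed to 2258 to 3088 CPM in Mof+/+ and to 2521 to 4987 CPM in Mof+/- libraries, and 2 of the 5, Dpt and Pi16, rose. The 5 endothelial markers summed to 937 to 2245 CPM in Mof+/+ and to 209 to 228 CPM in Mof+/- libraries, and 4 of the 5 fell. SD Mof+/+ replicate 3, in which Mx1 was highest, had B cell and T and NK cell marker sums of 317 and 237 CPM, against at most 52.5 and 36.0 CPM in the other libraries. No tested marker of B cells, T and NK cells, neutrophils or skeletal muscle was called. All 7 tested markers of T and NK cells and all 3 of B cells were nevertheless below 0, with median log2 fold changes of −3.12 and −2.89. All 3 tested neutrophil markers were also below 0, and all 3 tested skeletal muscle markers were above 0. The 8 macrophage markers were detected in all 6 SD libraries, summed to 862 to 1557 CPM in Mof+/+ and 907 to 1410 CPM in Mof+/-, and none was called. The 7 plasmacytoid dendritic cell markers summed to 28.7 to 90.2 CPM in Mof+/+ and to 46.1 to 51.8 CPM in Mof+/- libraries. Of that list Siglech, its defining gene, was at 5.75 to 19.7 CPM in Mof+/+ and at 4.02 to 6.93 CPM in Mof+/-, and Cd209d rose. The part of these cells in the differences was not tested, and in whole tissue fewer cells of a type and less RNA per cell cannot be told apart.

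Exon length also moved with the genotype difference on SD. Across the genes tested, which are not independent replicates, the log2 fold change had a Spearman correlation of −0.43 with exon length. The 4 interferon genes tested with less than 1000 bases of exon were Bst2, Ifi27l2a, Isg15 and Ifitm3, and all 4 were above 0, with a median of 1.47. Ifitm3, which blocks virus entry at membranes and is named here after its values were seen, was at 213, 137 and 209 CPM in Mof+/+ and at 284, 285 and 311 CPM in Mof+/- WAT (log2 fold change 1.02, adjusted p = 0.0526, edgeR). Of the 29 genes with 1000 to under 3000 bases, 18 were above 0, with a median of 0.24. Of the 88 with 3000 bases or more, 25 were above 0, with a median of −0.34. With an offset for length, Bst2 was at 0.61 and 0 of the 9 genes were called. The part of length in these differences was not tested beyond that.

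**Figure D4:**
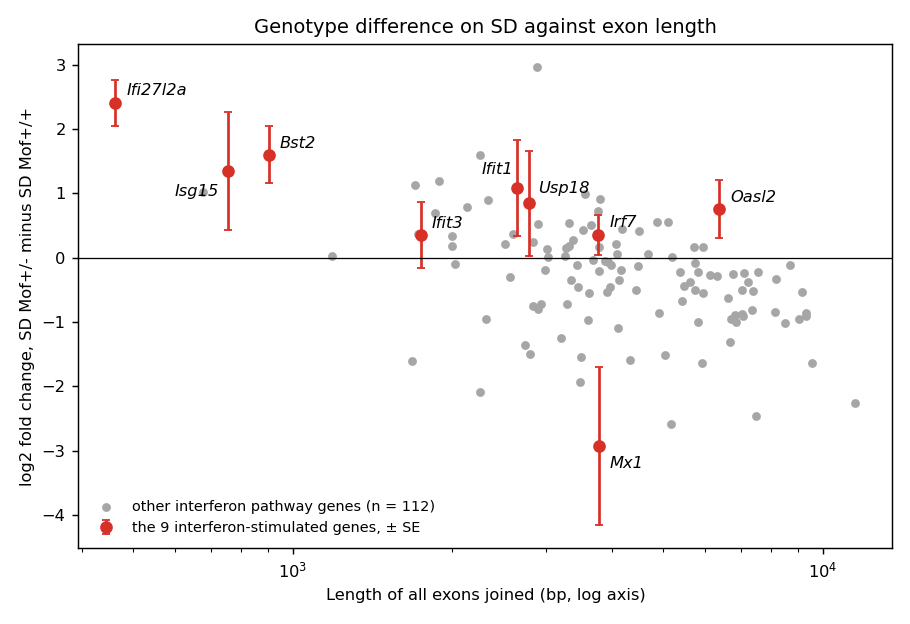
Log2 fold change of SD Mof+/- minus SD Mof+/+ (vertical axis) against exon length in bases (horizontal log axis), for the 9 genes in red with SE and for 112 other interferon pathway genes in gray. The 3 members under 1000 bases, Ifi27l2a, Isg15 and Bst2, lie at 2.41, 1.35 and 1.60.

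The genotypes were next compared on HFD. Of the 9 genes, edgeR called 0, with 0 at an unadjusted p under 0.05 and 0 by DESeq2. Of all 14120 genes tested 0% were called by edgeR (198 by DESeq2), and 12.3% had an unadjusted p under 0.05. The HFD Mof+/- libraries disagreed with each other for most of the genes. Ifi27l2a was at 1769 and 2473 CPM in Mof+/+ and at 1921 and 11470 CPM in Mof+/- WAT, so that the second Mof+/- library held the highest level of the series and the first lay between the controls (log2 fold change 1.90 ± 1.15, adjusted p = 0.672, edgeR). Bst2 was at 88.5 and 107 CPM in Mof+/+ and at 71.8 and 90.9 CPM in Mof+/- WAT, with a log2 fold change of 0.06 ± 0.30.

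Irf7 was at 27.3 and 23.2 CPM in HFD Mof+/+ WAT, and at 0 and 36.2 CPM in Mof+/- WAT. Ifit1 was at 10.01 and 4.43 CPM in Mof+/+ and at 0 and 7.77 CPM in Mof+/- WAT, and Usp18 was at 5.55 and 6.56 CPM against 0 and 14.3 CPM. In each case the first Mof+/- library lay below and the second within or above the range of the controls. The detection floor of 3 counts is 2.87 CPM in the first library, and the exact 95% interval of a count of 0 there reaches 3.53 CPM. Isg15 showed the opposite split, at 13.0 and 6.43 CPM in Mof+/+ and at 27.8 and 3.62 CPM in Mof+/- WAT. The 27.8 CPM rest on 29 counts, with a 95% exact interval of 18.6 to 39.9 CPM. Ifit3 was at 35.9 and 18.4 CPM against 7.66 and 31.5 CPM. Oasl2 (41.3 and 20.7 CPM against 9.58 and 16.1 CPM) and Mx1 (10.3 and 8.05 CPM against 0 and 6.15 CPM) were the 2 genes whose genotypes did not overlap, where 54.4% of all genes did not. Oasl2 had a log2 fold change of −0.95 ± 0.72 and Mx1 of −1.21 ± 1.66. Leaving out each library in turn gave −1.38 to −0.40 for Oasl2 and −9.63 to −0.41 for Mx1, whose lower end rests on a lone library with 0 counts.

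Without HFD Mof+/- replicate 1, 6 of the 9 log2 fold changes were above 0, with 2.60 for Ifi27l2a and 1.40 for Usp18. Without replicate 2, 2 of the 9 were above 0, and Ifi27l2a, then without its 11470 CPM library, was at 0.25. Both fits leave a lone Mof+/- library, so no call is read from them. Of the 111 other pathway genes tested on HFD, 0 were called by edgeR and 4 by DESeq2, 15 had an unadjusted p under 0.05, and 94 were below 0, with a median of −0.96 beside −0.24 over all genes. All 8 macrophage markers were also below 0 in that comparison, with sums of 4028 and 5140 CPM in Mof+/+ and 1164 and 1999 CPM in Mof+/- libraries. So were 6 of the 7 T and NK cell markers and 3 of the 4 B cell markers, with 1 above 0 in each list. All 8 skeletal muscle markers were above 0, with a median log2 fold change of 12.7. The part of these cells in the pathway values was not tested.

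The effect of HFD in Mof+/+ WAT was compared next. Ifi27l2a was at 513 to 1233 CPM on SD and at 1769 and 2473 CPM on HFD, and Bst2 at 22.6 to 77.3 CPM on SD and at 88.5 and 107 CPM on HFD. Both genes were higher in every HFD library than in every SD library. Their log2 fold changes were 1.44 ± 0.36 (adjusted p = 0.0509, edgeR) and 1.09 ± 0.43 (adjusted p = 0.152), so that 0 of the 9 genes were called, where 9.75% of 14939 genes were. These 2 had an unadjusted p under 0.05, and DESeq2 called 1, Ifi27l2a, among 2967 genes in all. Grouping by the column headings left 0.048 for Ifi27l2a and 0.18 for Bst2, and the length offset 0.57 and 0.49. They were also the 2 genes whose diets did not overlap, where 49.1% of all genes did not. The other 7 overlapped, with log2 fold changes from −0.45 for Irf7 to 0.53 for Isg15. Without SD Mof+/+ replicate 3, both Ifi27l2a (1.77, adjusted p = 0.0219, edgeR) and Bst2 (1.51, adjusted p = 0.0442) were called, among 2230 genes in all.

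Of 113 other pathway genes tested between the diets in Mof+/+ WAT, 5 rose and 1 fell, where 9.75% of all genes were called. The median was 0.21 beside −0.04 over all genes. Among receptors, Ifngr2 rose from 24.3, 30.7 and 38.6 CPM on SD to 85.5 and 80.6 CPM on HFD (log2 fold change 1.54 ± 0.23, adjusted p = 0.0123, edgeR), and Il10rb, shared by the receptors for interleukin 10 and interferon lambda, rose by 1.72 ± 0.33 (adjusted p = 0.0266). Ifnar1 and Ifnar2 had log2 fold changes of 0.42 and 0.41 and did not pass the threshold. Irf5 rose from 21.2, 17.9 and 46.2 CPM to 99.5 and 136 CPM (log2 fold change 2.18 ± 0.39, adjusted p = 0.0227, edgeR). Unc93b1, which delivers nucleic acid sensing Toll-like receptors to endosomes, rose by 1.31 ± 0.32 (adjusted p = 0.0468, edgeR). Psmb10, a subunit of the immunoproteasome, rose by 1.31 ± 0.29 (adjusted p = 0.0379). Rnf125, a ubiquitin ligase that restrains RNA sensing, fell from 9.83, 20.8 and 17.3 CPM to 1.03 and 1.12 CPM (log2 fold change −3.75 ± 0.57, adjusted p = 0.0132, edgeR). All 6 calls were lost without either HFD Mof+/+ library, those of Il10rb and Irf5 also without SD Mof+/+ replicate 1, and those of Unc93b1 and Psmb10 also without SD Mof+/+ replicate 1 or 2. All 6 were also lost with all 10 libraries in a single fit and with grouping by the column headings, which left Psmb10 at 0.61 and Ifngr2 at 1.03, and those of Unc93b1 and Psmb10 with the length offset or on library totals.

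Macrophage markers moved with these genes. Their summed level was 862 to 1557 CPM on SD and 4028 and 5140 CPM on HFD in Mof+/+ WAT, and 6 of the 8 rose, such as Adgre1 (log2 fold change 2.23) and Cd14 (1.30). Siglech and Cd209d of the plasmacytoid dendritic cell list fell, Siglech from 5.75 to 19.7 CPM on SD to 0 and 0.375 CPM on HFD. The 5 endothelial markers summed to 937 to 2245 CPM on SD and to 374 and 456 CPM on HFD, and Cdh5 and Kdr fell. Of the 7 adipocyte markers 3 were above 0 and 4 below, with a median log2 fold change of −0.12, and Lep alone was called and rose. No tested marker of fibroblasts and progenitors, mesothelium, neutrophils, T and NK cells, B cells or skeletal muscle was called. The part of these cells in the pathway changes was not tested.

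In Mof+/- WAT, 0 of the 9 genes were called between the diets by edgeR, with 0 at an unadjusted p under 0.05 and 0 by DESeq2, where 0% of 13610 genes were called (470 by DESeq2) and 8.57% had an unadjusted p under 0.05. None of the 9 separated the diets, where 27.6% of all genes did. Ifi27l2a spanned 1921 to 11470 CPM on HFD around 3279 to 3918 CPM on SD (log2 fold change 0.85 ± 0.87), and Bst2 spanned 71.8 to 90.9 CPM on HFD and 83.7 to 152 CPM on SD (−0.55 ± 0.45). The other 7 ran from −1.74 ± 1.51 for Ifit1 to 1.25 ± 1.99 for Mx1. Leaving out each library in turn gave −9.94 to −0.94 for Ifit1 and −6.56 to 2.10 for Mx1, and both lower ends rest on a lone library with 0 counts. Mx1 was not tested without SD Mof+/- replicate 2, so its range leaves that fit out. Without HFD Mof+/- replicate 2, Irf7 was at −11.39, a value that rests on a lone library with 0 counts. Of the 110 other pathway genes tested, 0 were called by edgeR and 1 by DESeq2, 8 had an unadjusted p under 0.05 and 82 were below 0, with a median of −0.44 beside −0.26 over all genes.

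Whether the genotype difference itself differed between the diets was tested as an interaction over all 10 libraries. Only the SD Mof+/- libraries had Xist and no Y-linked counts, so sex, like age, cannot be told apart from diet in this test. Of the 9 genes edgeR called 0, and DESeq2 called 0, where 0.0881% of 15897 genes were called by edgeR. Bst2 (−1.64 ± 0.65, adjusted p = 0.344, edgeR) and Oasl2 (−1.80 ± 0.81, adjusted p = 0.397) had an unadjusted p under 0.05, as did 12.4% of all genes. The length offset left Bst2 at −0.098 and grouping by the column headings at −0.24. For Ifi27l2a the difference between the genotype effects was −0.60 ± 0.85 on the log2 scale (adjusted p = 0.818, edgeR), so that its call on SD and not on HFD was not shown to differ between the diets. Without HFD Mof+/- replicate 2 Ifi27l2a was at −2.23, and without replicate 1 at 0.19. Both fits leave a lone library in that group, so no call is read from them. Of 114 other pathway genes tested, edgeR called 0 and DESeq2 4 (505 over all genes), with 14 at an unadjusted p under 0.05.

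The 9 genes did not move as a single block across the libraries. Irf7, Ifit1, Ifit3, Oasl2 and Usp18, grouped after their values were seen, had Pearson correlations of log2 CPM with each other of 0.52 to 0.89 over the 10 libraries (Spearman 0.45 to 0.85). Without HFD Mof+/- replicate 1, where 3 of these 5 were at 0, the range was 0.36 to 0.82. Bst2 and Ifi27l2a had a correlation of 0.72 (Spearman 0.89), and of 0.72 without that library. With the 5 genes named first, Bst2 and Ifi27l2a had correlations of −0.03 to 0.34. Isg15 was nearest to Bst2, at 0.57, and Mx1 to Ifit1, at 0.62. The points share libraries, depth and scaling, and 4 groups make up the 10 libraries.

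**Figure D5:**
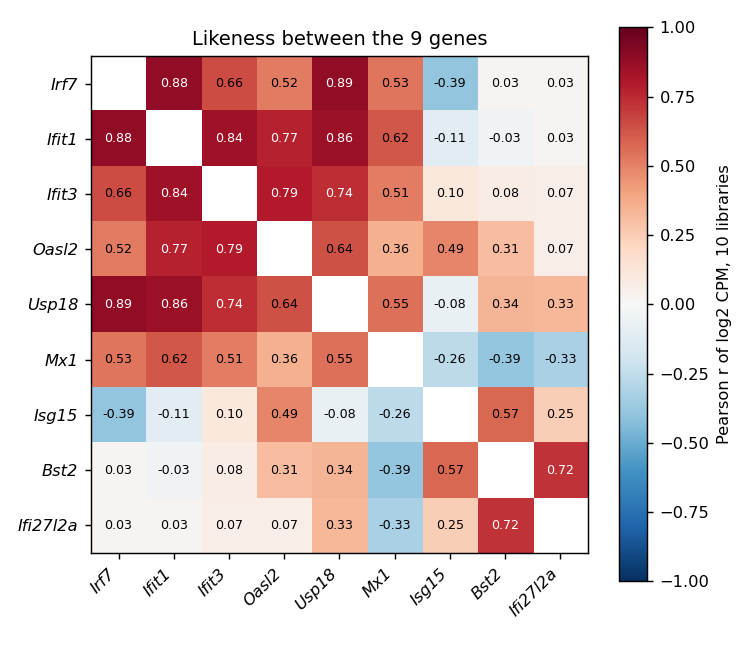
Pearson correlation of log2 CPM over the 10 libraries for each pair of the 9 genes (color scale from −1 to 1). The upper left block of Irf7, Ifit1, Ifit3, Oasl2 and Usp18 is at 0.52 to 0.89, and Bst2 with Ifi27l2a is at 0.72.

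The genes most like the mean of the 9 were sought among 15888 others. The 10 nearest by Pearson correlation with the mean Z-score of the 9 were Erlec1 (0.97), Ddx52 (0.93), Cog7 (0.92), Itgb3 (0.91), Tle3 (0.91), Ypel1 (0.91), Nr4a2 (0.90), Gm6542 (0.90), Dhdds (0.89) and Pqbp1 (0.89). None of the 10 was in the interferon lists. Of the 10, 2 were among the nearest 10 by Spearman correlation and 4 without HFD Mof+/- replicate 1.

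Some members share sequence or position with other genes, which limits how their reads can be assigned. Ifit3 and Ifit3b, in the same gene cluster, were 98.0% identical over 1697 aligned bases of their transcripts, so that reads could be split or lost between them. Ifit3b was at 0 to 14.4 CPM. Ifit1 and Ifit1bl1 were 76.2% identical, Mx1 and Mx2 75.8%, and Oasl2 and Oasl1 61.0%. Ifi27l2a and Ifi27l2b were 85.5% identical over 289 bases, and Ifi27l2b was at most at 1.15 CPM. Ifi27, the neighbor on the other strand, was at 357 to 1065 CPM. The library kit does not mark strand, so reads where Irf7 overlaps Phrf1, or Usp18 overlaps the noncoding Gm44148, cannot be assigned to a strand. Phrf1 was at 10.7 to 58.2 CPM and Gm44148 at 0 to 4.34 CPM.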

How the data were processed

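Visceral WAT mRNA-seq (TruSeq, paired reads) was analysed in 10 libraries. The authors mapped reads to GRCm38 with STAR through snakePipes, counted them with featureCounts (Subread 1.5.0-p1) and deposited raw counts per gene for each library; the annotation release is not given in the sources used here. Of 47937 identifiers, 47224 matched a symbol in GENCODE M21, which also gave positions and exon lengths. Groups followed the sample labels.

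Levels are CPM on the library total of gene counts, from 1044355 to 17171947, and the detection floor was 3 counts. Exact (Clopper-Pearson) 95% intervals and floors cover counting error only. Each pair of groups was fitted by itself in edgeR 4.0.16, by quasi-likelihood after filterByExpr and TMM scaling. P-values were adjusted by Benjamini-Hochberg over all genes tested with a threshold of 0.05. The interaction was fitted to all 10 libraries. Likeness used log2 CPM (TMM, prior count 2). Transcripts were aligned locally with Biopython 1.88.

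Alternatives were DESeq2 1.42.0, its size factors, no filter, a replicate block, a length offset (loess, span 0.5), all 10 libraries in a single fit, grouping by column headings, leaving out each library, TMM-scaled CPM for the levels, and Spearman correlation. Library totals in place of TMM, and leaving out replicate 3 of both SD groups, were added after seeing the data. A lone library left in a group was assumed to vary like the other group. The fits were tested on simulated data. At the spread of these libraries they recovered few of the changed genes on SD and between the diets in Mof+/+, and none on HFD and between the diets in Mof+/-, so a count of 0 does not show that genes did not differ.

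The members and lists were chosen with earlier results of these data known. Named genes were the 9 members, their relatives, receptors, signaling factors and RNA sensors, every ligand with over 3 counts, up to 3 called genes per list or else the 2 most abundant, and the 10 most alike genes; 1 gene of that rule is not reported here. Same-numbered libraries of the 2 genotypes were not paired (correlations of their deviations at most 0.020 on SD and 0.025 on HFD). Replicates of a group differed well beyond sampling noise, by a chi-square per degree of freedom of 30.5 to 153.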

Additional observations from a re-analysis of the deposited data

How the results depend on the processing

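Members called between the genotypes on SD numbered 1, but 2 with DESeq2 or no filter, and 0 with the length offset, with all 10 libraries in a single fit or with grouping by column headings. Between the diets in Mof+/+ WAT they numbered 0, but 1 with DESeq2 or no filter, and 2 with the replicate block or with replicate 3 of both SD groups left out. Leaving out a library gave 0 to 1 members on SD, 0 to 5 on HFD, 0 to 2 for diet in Mof+/+, 0 to 1 for diet in Mof+/- and 0 to 2 for the interaction. Genes called in all moved from 727 to between 0 and 2198 on SD, from 0 to up to 7551 on HFD, from 1457 to between 0 and 2967 for diet in Mof+/+, from 0 to up to 2122 for diet in Mof+/-, and from 14 to between 0 and 3163 for the interaction. Of the 10 most alike genes, 2 stayed with Spearman correlation and 4 without HFD Mof+/- replicate 1.

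Directions that turned were mostly those of small differences, and the cause was not tested. With the length offset, the log2 fold change was −0.14 for Ifit3 on SD, 0.093 for Irf7, 0.29 for Ifit3 and 0.16 for Oasl2 on HFD, −0.055 for Isg15 and −0.32 for Ifit3 between the diets in Mof+/+, 0.15 for Usp18 and 0.37 for Bst2 between the diets in Mof+/-, and for the interaction 1.38 for Isg15, 0.28 for Ifit3, 0.033 for Usp18 and 0.85 for Ifi27l2a. With grouping by column headings it was 1.51 for Mx1 on SD, 0.50 for Ifit1 and 1.41 for Mx1 between the diets in Mof+/+, −0.052 for Isg15 and −1.34 for Mx1 in Mof+/-, and −2.76 for Mx1 and 1.31 for Ifi27l2a in the interaction. On library totals it was −0.0081 for Irf7 on SD, −0.26 for Bst2 on HFD and −0.070 for Ifit3 between the diets in Mof+/+, and with all 10 libraries in a single fit −0.031 for Bst2 on HFD. With replicate 3 of both SD groups left out it was 0.16 for Ifit1, −0.059 for Ifit3 and 0.83 for Mx1 between the diets in Mof+/+, −0.26 for Isg15 in Mof+/-, and −0.028 for Mx1 in the interaction.

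The replicate block turned Usp18 on HFD to −0.90, Ifit1 and Mx1 between the diets in Mof+/+ to 0.072 and 0.84, and Isg15 and Mx1 in Mof+/- to −0.91 and −0.28. It ended the calls of Jak2 and Helz2 on SD (adjusted p = 0.0556 and 0.0786, edgeR). The numbers do not pair the animals: deviations of same-numbered libraries had correlations of at most 0.020 on SD and 0.025 on HFD.

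Leaving out each library in turn gave these ranges where a direction turned. On HFD they were −9.28 to 0.27 for Ifit1, −1.43 to 0.38 for Ifit3, −0.10 to 0.20 for Bst2, −1.25 to 1.91 for Isg15, −11.09 to 0.69 for Irf7 and −9.03 to 1.40 for Usp18. Between the diets in Mof+/+ they were −0.47 to 0.54 for Ifit3, −0.16 to 1.14 for Usp18, −0.75 to 0.40 for Ifit1, −0.78 to 0.83 for Mx1, −0.033 to 1.88 for Isg15 and −0.042 to 0.94 for Oasl2. In Mof+/- they were −9.06 to 0.81 for Usp18, −2.13 to 1.03 for Isg15, −1.78 to 0.030 for Ifit3, −0.78 to 1.58 for Ifi27l2a and −6.56 to 2.10 for Mx1, which was not tested without SD Mof+/- replicate 2. For the interaction they were −2.63 to 0.47 for Isg15, −9.73 to 0.55 for Usp18, −11.29 to 0.32 for Irf7, −1.86 to 0.022 for Ifit3, −2.23 to 0.19 for Ifi27l2a and −6.57 to 3.07 for Mx1. Except between the diets in Mof+/+, the lowest values for Irf7, Ifit1, Usp18 and Mx1 rest on a lone library at 0 counts. Those values depend on the prior count, so they are no measure of size. The depth of HFD Mof+/- replicate 1 limits what can be seen below 2.87 CPM.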
